A study of Rattus norvegicus with 20 samples.

Results

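The subunits of the mitochondrial oxidative phosphorylation system were examined in rat liver under mild food restriction. Members were all probe sets listed with a single gene whose symbol starts with Nduf, Uqcr, Atp5 or Cox4 to Cox8, or is Sdha, Sdhb, Sdhc, Sdhd or Cyc1. The rule uses names only. It found 90 probe sets for 85 genes, of 15866 probe sets on the array. Of these, 81 probe sets for 79 genes lay in the upper 60% of all probe sets by mean log2 signal and were tested, beside 9520 probe sets in all.

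The livers came from male Wistar rats, a laboratory strain, fed without restriction or with 5, 10, 20 or 30% less food for 1 week or for 1 month, after a start at 6 weeks of age, and fasted for 16 h before sampling. Each of the 10 combinations of diet and time gave 1 RNA pool made from 5 rats, hybridised in duplicate, so that 20 Affymetrix arrays cover 10 pools. Every group shares the strain, the sex and the fast. Duplicate arrays repeat the same RNA, so the pool is the unit of every main test (n = 10). Each condition has 1 pool. A p-value weighs a slope or difference against the scatter of pools around the fitted model, not against the spread between rats. Ages are labelled as 6 weeks (1 week pools) and 9 weeks (1 month pools), without saying at which point they were taken.

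Oxidative phosphorylation turns the electrons of food into ATP. Complex I takes electrons from NADH and complex II takes them from succinate, complex III passes them to cytochrome c, and complex IV hands them to oxygen. Complexes I, III and IV pump protons across the inner mitochondrial membrane, and complex V, the ATP synthase, lets them flow back to make ATP. Hepatocytes hold many mitochondria and use this ATP for glucose, lipid and urea synthesis. The members are nuclear genes, since the subunits made inside the mitochondrion have other names and are not part of the rule.

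The 2% trimmed mean of the deposited signals ran from 38.4 to 98.8 units over the arrays, and quantile normalization put them on 1 scale. Of 11 hepatocyte marker probe sets 9 passed the signal filter, with Alb at a mean of 10756 units, while 1 of 8 skeletal or cardiac muscle probe sets passed (Ckm, at 16.6 units). In whole liver, fewer cells of a type and less RNA per cell cannot be told apart. The ratio of the 3' to the 5' control probe sets of GAPDH, a sign of RNA integrity, ran from 1.33 to 1.51 in the 1 week pools and from 1.30 to 1.61 in the 1 month pools.

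The members had bright and steady signals. Their median mean signal was 472 units, the median member stood at the 96.0th percentile of all probe sets, and 68 of the 90 were in the top 10%. The brightest was Atp5f1b, the catalytic beta subunit of the ATP synthase, at 2133 units. Its pool signals were 2145, 2159, 2152, 1979 and 2018 units at 0, 5, 10, 20 and 30% restriction after 1 week, and 2221, 2087, 2227, 2306 and 2059 units after 1 month. The highest of these 10 pools was 1.17-fold the lowest. Across the 81 tested members the median ratio of the highest to the lowest pool was 1.27, against 1.66 over all tested probe sets. It stayed under 1.5 in 70 of the 81 members (86.4%), and in 34.9% of all tested probe sets. The median SD over the pools was 0.114 on the log2 scale for the members and 0.231 for all tested probe sets, and the median difference between the arrays of a pool was 0.101 and 0.208, so both the pools and their technical repeats lay closer together among the members. These spreads were not compared with those of equally bright probe sets.

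The 9 members below the filter were mostly isoforms known from other tissues. Cox6a2, Cox7a1 and Cox8b, which replace their liver counterparts in heart and skeletal muscle, had pool signals from 6.1 to 18.1, from 3.6 to 13.0 and from 1.2 to 3.1 units. Cox6b2, a testis isoform, ran from 0.8 to 5.7 units, and Cox4i2, a lung isoform, from 3.9 to 19.2 units. Ndufa4l2, a gene induced by low oxygen, ran from 5.1 to 16.5 units. The lowest mean signal of any probe set tested was 11.7 units, a level that Cox6b2 and Cox8b reached in no pool and the other isoforms reached in some. The other 3 were probe sets of genes measured by a brighter one, 2 of Atp5if1 and 1 of Atp5me.

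**Figure D1:**
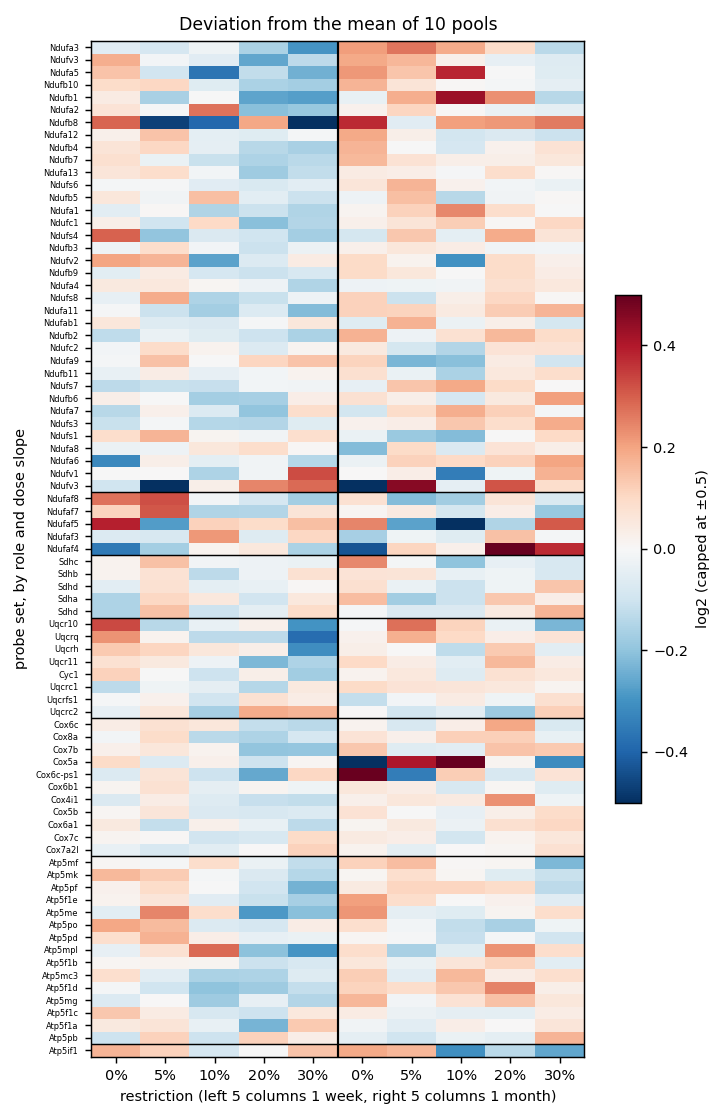
Deviation of each tested member (rows, by complex and dose slope, with black lines between the roles) from its mean over 10 pools (columns, by restriction and duration), as log2, red above and blue below, capped at 0.5 in size. Most rows are pale, and blue is most frequent in the 10, 20 and 30% columns at 1 week.

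Whether the subunits changed with the degree of restriction was asked with a dose trend, the log2 change over 30 percentage points of restriction with duration as a covariate, in limma, with p-values adjusted by Benjamini-Hochberg over the 9520 probe sets. Ndufa3 fell and no other of the 81 members passed the adjusted threshold of 0.05. Over all probe sets 3.76% passed (171 higher and 187 lower), so the members' 1 in 81 lay below the background share. The median slope of the members was -0.07, against 0.00 over all tested probe sets, and 25 of 81 slopes were above 0. Before adjustment 1 member was higher and 9 were lower at p under 0.05, which is 12.3% of the members against a background of 19%. The 95% interval of the slope lay within 0.5 of 0 on the log2 scale, a fold of 1.41, for 67 of the 81 members (82.7%) and for 33.8% of all tested probe sets. Cytosolic ribosomal proteins, other short and abundant mRNAs, had 78.7% of their intervals within that bound.

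As a single step, 8 restricted pools against 2 control pools, 0 members passed in limma, where 5.27% of all tested probe sets did. Their median step was -0.04, with 18 of 81 above 0. At an unadjusted p under 0.05 the step held 6.17% of the members and 18.9% of all tested probe sets.

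Ndufa3, an accessory subunit in the membrane arm of complex I, gave the lone call. At 1 week its arrays read 622 and 480 units in the control pool, 554 and 519 at 5%, 660 and 474 at 10%, 537 and 482 at 20%, and 471 and 456 at 30%. At 1 month they read 701 and 614 in the control pool, 694 and 674 at 5%, 606 and 688 at 10%, 569 and 645 at 20%, and 482 and 556 at 30%. At both durations the 30% arrays lay under both control arrays, by a narrow margin at 1 week, while the arrays at 5, 10 and 20% overlapped them. The slope was -0.30 ± 0.076 (SE, 10 pools; 1.23-fold lower over 30 points, adjusted p = 0.0493 in limma). The call did not hold when any 1 of the 10 pools was left out (adjusted p from 0.0601 to 0.178), and it was made in 2 of 20 alternative settings. The slope was below 0 in all 20 but depended on the arrays, at -0.46 with arrays numbered 1 alone and -0.14 with arrays numbered 2 alone.

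The 250 bases upstream of the Ndufa3 start are shown because it is the lone member past the threshold. They lie at chr1:74515559-74515808 on the minus strand of GRCr8 and are given 5′ to 3′ from RefSeq. Capitals mark GGGGCGGGG, a word bound by factors of the SP1 family, 51 bases before the start.
Ndufa3: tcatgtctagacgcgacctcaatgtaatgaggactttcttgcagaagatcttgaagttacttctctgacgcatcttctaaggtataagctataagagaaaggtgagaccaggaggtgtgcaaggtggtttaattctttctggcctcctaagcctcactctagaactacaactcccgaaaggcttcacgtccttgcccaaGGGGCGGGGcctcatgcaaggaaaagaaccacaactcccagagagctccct

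Complex I, the NADH dehydrogenase, had 37 probe sets, of which 36 were tested. Roles were assigned by gene symbol, so Ndufa4 and Ndufa4l2 are counted here whichever complex holds their proteins. Besides Ndufa3, 0 passed the dose trend in either direction, and the median slope was -0.05, with 12 of 36 above 0. Ndufv1, which binds NADH and the flavin, had a slope of 0.24 ± 0.13 (adjusted p = 0.35 in limma), and Ndufs1, the largest iron-sulfur subunit, of 0.08 ± 0.11 (adjusted p = 0.77). Ndufv1 signals were 345, 346, 310, 341 and 432 units from 0 to 30% at 1 week, and 346, 353, 272, 340 and 389 units at 1 month, so the control pools were within 1 unit of each other and the 30% pools were the highest at both durations. Of the core subunits found in bacteria as well, 6 were tested, with a median slope of 0.06 and 4 above 0. The other 30 had a median slope of -0.08 and 8 above 0. That division was made after the values were seen and was not tested.

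Among accessory subunits, Ndufb10 signals were 439, 443, 395, 369 and 366 units at 1 week and 463, 431, 414, 409 and 399 units at 1 month. They were lower at each step from 5% on at both durations, with a slope of -0.24 ± 0.077 that did not pass (adjusted p = 0.10 in limma). Ndufb8 and Ndufa5 were dim, at means under 100 units. Ndufb8 ranged from 38.8 to 77.2 units over the pools and had a slope of -0.19 ± 0.24, and Ndufa5 ranged from 43.8 to 73.4 units with a slope of -0.29 ± 0.14, and neither passed.

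Ndufv3, a small accessory subunit of the NADH-binding arm, was read by 2 tested probe sets, and their slopes had opposite signs. The bright one read 481, 420, 407, 354 and 387 units at 1 week, and 484, 476, 431, 412 and 406 units at 1 month. At 1 week every restricted array lay under both control arrays, and at 1 month the arrays at 10, 20 and 30% did. Its slope was -0.29 ± 0.088 (95% interval -0.48 to -0.10, adjusted p = 0.086 in limma). The dim one read 25.5, 17.9, 28.0, 32.5 and 33.4 units at 1 week, and 17.3, 37.6, 26.5, 34.1 and 29.1 units at 1 month. Its slope was 0.56 ± 0.27 (adjusted p = 0.30), the largest of any tested member. Which transcripts each probe set reads was not analysed here. The 250 bases upstream of Ndufv3 are shown because its probe sets differed, at chr20:9613536-9613785 on the plus strand of GRCr8 (RefSeq), with capitals on GCGCANGCG, a word bound by nuclear respiratory factor 1, at 39 bases before the start.
Ndufv3: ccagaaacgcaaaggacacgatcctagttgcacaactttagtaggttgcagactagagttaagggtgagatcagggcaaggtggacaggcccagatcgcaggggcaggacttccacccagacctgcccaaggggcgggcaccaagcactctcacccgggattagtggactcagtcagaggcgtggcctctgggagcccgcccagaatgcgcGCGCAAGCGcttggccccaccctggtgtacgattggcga

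The 5 complex I assembly factors, which build the complex without staying in it, had a median slope of 0.13 and 0 calls. Ndufaf4 signals were 41.0, 46.5, 53.0, 54.2 and 46.9 units at 1 week and 38.8, 56.3, 53.2, 75.8 and 67.7 units at 1 month. At 1 month all 8 restricted arrays lay above both control arrays. At 1 week the arrays at 10 and 20% did so, while those at 5 and 30% overlapped the control arrays. Its slope was 0.47 ± 0.18 (adjusted p = 0.19 in limma), and its step between restricted and control pools was 0.49 ± 0.15 (1.40-fold, adjusted p = 0.084). Ndufaf8 (-0.23 ± 0.15, adjusted p = 0.45), Ndufaf5 (0.13 ± 0.27), Ndufaf3 and Ndufaf7 did not pass. The 250 bases upstream of Ndufaf4 are shown because it had the largest step of the members, at chr5:43401545-43401794 on the plus strand of GRCr8 (RefSeq), with capitals on a pair of overlapping GCGCANGCG matches, 158 and 157 bases before the start, 1 on each strand.
Ndufaf4: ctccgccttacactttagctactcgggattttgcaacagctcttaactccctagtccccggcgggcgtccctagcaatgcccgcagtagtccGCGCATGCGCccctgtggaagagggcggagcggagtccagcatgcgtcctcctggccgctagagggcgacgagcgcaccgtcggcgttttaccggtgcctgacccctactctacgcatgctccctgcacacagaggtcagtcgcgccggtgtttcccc

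Complex II, succinate dehydrogenase, also works in the citric acid cycle. None of its 5 probe sets passed in limma in the dose trend, the step, the duration comparison or the slopes by duration, and at an unadjusted p under 0.05 there were also 0 in the dose trend, the duration comparison and both slopes. Sdha, the flavin subunit that oxidises succinate, read 489, 583, 564, 509 and 563 units at 1 week and 605, 481, 504, 597 and 557 units at 1 month. The control pool was the lowest of the 5 at 1 week and the highest at 1 month, and the slope was 0.06 ± 0.11 (95% interval -0.18 to 0.30). Sdhb, the iron-sulfur subunit, had a slope of -0.05 ± 0.079, and Sdhc, a membrane anchor, of -0.16 ± 0.10. The 2 probe sets of Sdhd, the other anchor, agreed in sign, with slopes of 0.17 ± 0.097 and 0.05 ± 0.082.

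Complex III held the lowest dose slope of the members and the lowest slope at 1 week. All 8 of its probe sets were tested and 0 passed the dose trend. Uqcr10 and Uqcrq, small subunits without a redox group, were lower before adjustment. Uqcr10 read 782, 566, 607, 633 and 507 units at 1 week and 620, 753, 673, 609 and 531 units at 1 month, so the 30% pool was the lowest at both durations, while the control pool was the highest only at 1 week. Its slope was -0.38 ± 0.12 (1.30-fold lower over 30 points, 95% interval -0.64 to -0.11, adjusted p = 0.11 in limma).

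Uqcrq, known as a ubiquinone-binding subunit, read 1127, 979, 883, 882 and 741 units at 1 week and 981, 1092, 1035, 989 and 1014 units at 1 month. The 1 week pools were in the order of their restriction, and all 6 arrays at 10, 20 and 30% lay under both control arrays. The 1 month pools overlapped. The slope was -0.52 ± 0.11 at 1 week (1.44-fold lower, adjusted p = 0.059 in limma) and -0.03 ± 0.11 at 1 month (adjusted p = 0.96). Without the control pool of 1 month, which leaves the slope at 1 week as it was and changes the error shared by both durations, it passed (adjusted p = 0.0185). Uqcrh, the hinge protein on the side where cytochrome c docks, had a slope of -0.40 ± 0.13 at 1 week (adjusted p = 0.18) and 0.00 ± 0.13 at 1 month. Uqcr11 had -0.28 ± 0.12 at 1 week and 0.02 ± 0.12 at 1 month. These 4 small subunits had a median slope of -0.41 at 1 week. They were the 4 of 8 complex III members lower at an unadjusted p under 0.05 there, beside 15.9% of all tested probe sets in either direction, and as a set formed after the values were seen they support no test.

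The other 4 complex III members carry the redox groups or form the matrix core. Cyc1, its cytochrome, had a dose slope of -0.08 ± 0.087, Uqcrfs1, the Rieske iron-sulfur protein, of 0.11 ± 0.073, and the core proteins Uqcrc1 and Uqcrc2 of 0.01 ± 0.078 and 0.16 ± 0.10. Their median slope at 1 week was 0.08, beside the -0.41 of the small subunits. The division of complex III was made after the values were seen and was not tested. The test of the difference between durations, the slope at 1 month minus that at 1 week, gave 0 calls among the members and among all tested probe sets (0% called), with 3 members and 5.52% of all tested probe sets at an unadjusted p under 0.05.

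**Figure D2:**
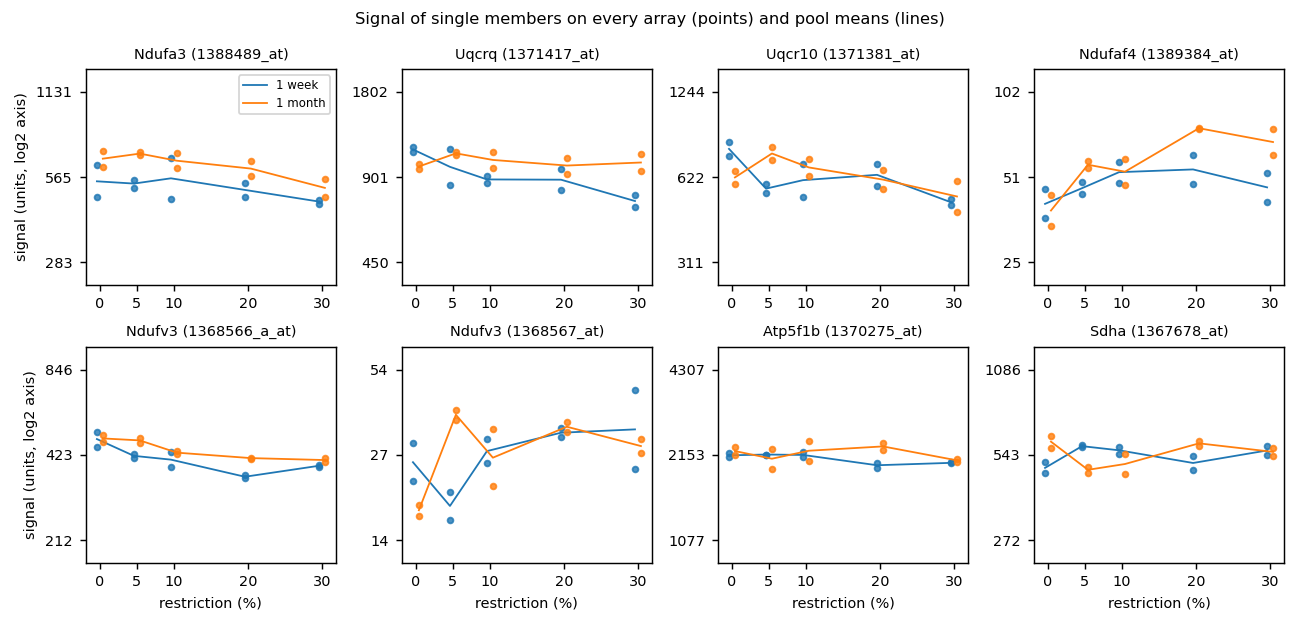
Signal on every array (points, in units on a log2 axis) and pool means (lines) against percent restriction for Ndufa3, Uqcrq, Uqcr10, Ndufaf4, the 2 probe sets of Ndufv3, Atp5f1b and Sdha, with 1 week in blue and 1 month in orange. Uqcrq read 1127 units in the control pool and 741 units in the 30% pool at 1 week, and between 981 and 1092 units in the pools at 1 month.

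Complex IV, cytochrome c oxidase, had slopes in a narrow range. Of its 16 probe sets 11 were tested, 0 passed, and all 11 dose slopes lay between -0.10 and 0.12, with a median of -0.07. Cox4i1, the subunit isoform used in most tissues, read 1202, 1298, 1210, 1168 and 1162 units at 1 week and 1286, 1314, 1306, 1482 and 1247 units at 1 month, with a slope of -0.04 ± 0.079 (95% interval -0.21 to 0.13). Cox5b, Cox6a1, Cox6b1, Cox6c, Cox7b and Cox8a had slopes from -0.10 to -0.01, each with a SE under 0.1. Cox7a2l, which joins complex III to complex IV in supercomplexes, had the largest slope above 0, at 0.12 ± 0.082 (adjusted p = 0.47 in limma). The probe set listed for Cox5a alone was dim, at 24.8 units, and had a slope of -0.08 ± 0.30. Cox6c-ps1, listed as a pseudogene of Cox6c, read 24.6 units and may share sequence with Cox6c, so its level is uncertain.

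Complex V, the ATP synthase, had 16 probe sets besides its inhibitor, of which 15 were tested. None passed the dose trend, 4 of 15 (26.7%) were lower before adjustment and 0 higher, beside 19% of all tested probe sets in either direction, and the median slope was -0.10, with 2 of 15 above 0. Atp5mk, a small membrane subunit, read 904, 882, 802, 768 and 732 units at 1 week and 814, 857, 813, 775 and 749 units at 1 month, the lowest at 30% both times, with a slope of -0.24 ± 0.068 (95% interval -0.38 to -0.09, adjusted p = 0.077 in limma). Atp5f1e, the epsilon subunit of the F1 catalytic sector, read 1047, 1077, 993, 958 and 922 units at 1 week and 1192, 1100, 1033, 1051 and 995 units at 1 month, with a slope of -0.21 ± 0.064 (adjusted p = 0.089). The slopes at 1 week and 1 month were both -0.21 for Atp5f1e.

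Atp5mf, a membrane subunit, had a slope of -0.24 ± 0.076 (adjusted p = 0.11). The catalytic subunits Atp5f1a and Atp5f1b had slopes of 0.03 ± 0.093 and -0.08 ± 0.063, and Atp5pb, of the peripheral stalk, of 0.16 ± 0.083 (adjusted p = 0.34). The 5 subunits of the F1 catalytic sector had a median slope of -0.05 and the other 10 of -0.13, a division made after the values were seen and not tested. Atp5if1, which stops the synthase from burning ATP when oxygen fails, had 1 of its 3 probe sets tested. It read 51.1, 49.3, 42.9, 45.4 and 50.2 units at 1 week and 51.9, 51.1, 36.8, 41.4 and 38.0 units at 1 month, with a slope of -0.23 ± 0.16 (adjusted p = 0.49).

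**Figure D3:**
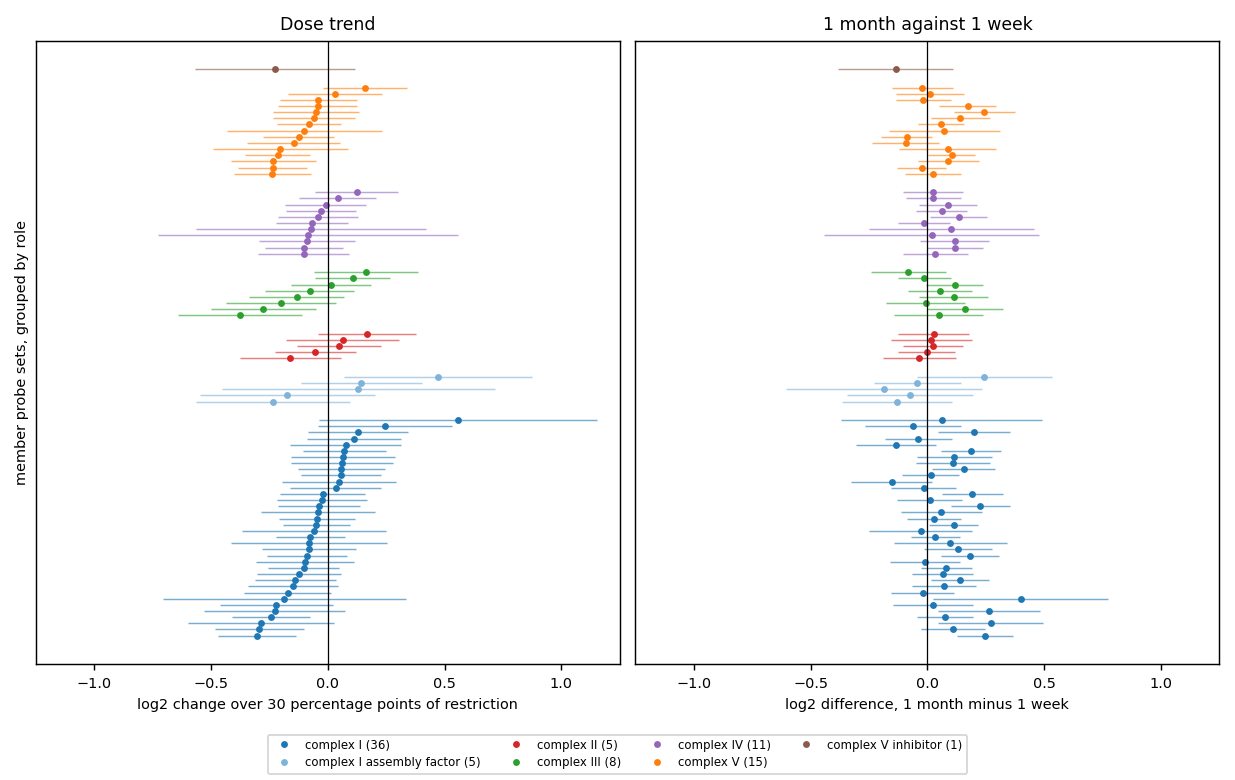
Log2 change of each of the 81 tested members (points) with its 95% interval (lines), coloured by role with the number of probe sets in brackets, for the dose trend over 30 percentage points of restriction (left) and for 1 month minus 1 week (right). Dose slopes are above 0 in 25 members and duration differences in 57.

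The slopes were also fitted apart for each duration. At 1 week 0 members passed in limma (0.714% of all tested probe sets did), the median slope was -0.11 and 23 of 81 were above 0. Before adjustment 15 members were lower and 0 higher, 18.5% of the members against a background of 15.9%. At 1 month 0 members passed (0.0315% of all), the median slope was 0.00 and 42 of 81 were above 0. Before adjustment 1 was higher and 3 were lower, 4.94% against a background of 10.5%. At 1 week all tested probe sets had a median slope of 0.00, with 728 higher and 790 lower before adjustment. Mitochondrial ribosomal proteins had a median of -0.13 at 1 week, with 22 of 80 above 0 and 0 higher and 13 lower before adjustment, and cytosolic ribosomal proteins had a median of -0.10, with 13 of 47 above 0 and 0 higher and 2 lower.

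Array by array, the members' median deviation minus that of all tested probe sets was below -0.05 on all 6 arrays of the 10, 20 and 30% pools at 1 week, from -0.13 to -0.05. On the other 14 arrays it ran from -0.03 to 0.06. That separation depends on quantile normalization, since in the signals as deposited the 6 arrays ran from -0.15 to -0.04 and the other 14 from -0.10 to 0.12, with overlap. The 20% pool at 1 week had the lowest GAPDH ratio of that duration, 1.33, and the 10 and 30% pools had 1.49 and 1.46, beside 1.51 in the control pool. With this ratio as a covariate the members' median slope at 1 week was -0.10 and 0 members passed.

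These signs depend on the scale. Relative to the median of all tested probe sets, the members' median was -0.07 under quantile normalization and -0.08 in the signals as deposited for the dose trend, -0.05 and -0.08 for the step, -0.10 and -0.13 for the slope at 1 week, and 0.06 in both for duration. Median centring and a common trimmed mean shift all probe sets of an array alike, so they give the deposited values of these differences again and count as no further alternative. In the signals as deposited the median of all probe sets itself moved, by 0.11 over the dose span, 0.25 for the step and 0.19 for duration, and the members' own medians then became 0.03 for the dose trend and 0.17 for the step.

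**Figure D4:**
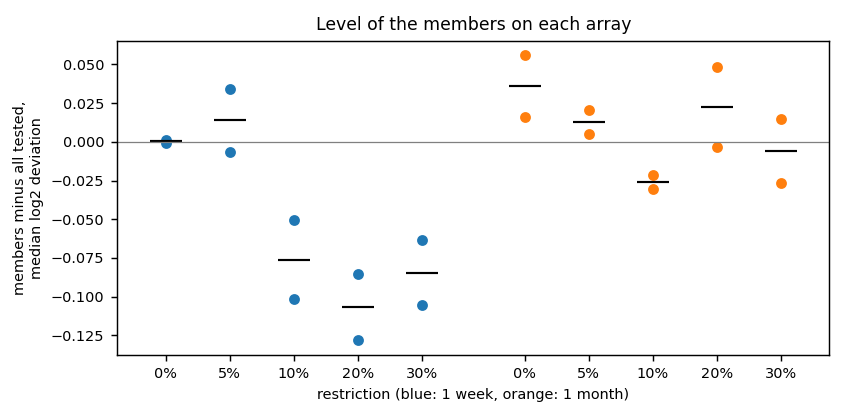
Median log2 deviation of the members minus that of all tested probe sets on each of the 20 arrays (points) after quantile normalization, with the mean of each pool (black bars), by restriction, with 1 week in blue and 1 month in orange. The 6 arrays of the 10, 20 and 30% pools at 1 week lie from -0.13 to -0.05, below the other 14, a separation that was lost in the signals as deposited.

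Between durations, most members were a little higher at 1 month than at 1 week, and none of the 81 passed the adjusted threshold in limma, where 0.336% of all tested probe sets did. The median difference was 0.06, against 0.00 over all tested probe sets, and 57 of 81 were above 0. Before adjustment 17 members were higher and 0 lower, 21.0% of the members against a background of 10.7%. Over all tested probe sets 509 were higher and 512 lower. By role, 12 of the 17 were of complex I, 4 of complex V and 1 of complex IV. The 95% interval lay within 0.5 of 0 for 78 of the 81 members (96.3%) and for 62.75% of all tested probe sets.

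Ndufa3 differed by 0.25 ± 0.055 (1.19-fold higher at 1 month, adjusted p = 0.090 in limma). Atp5f1d, the delta subunit of the F1 catalytic sector, read 466, 438, 408, 414 and 432 units at 1 week and 507, 499, 515, 557 and 479 units at 1 month. Every 1 month pool mean was above every 1 week pool mean, while single arrays overlapped, from 361 to 482 units at 1 week and from 465 to 570 units at 1 month, with a difference of 0.24 ± 0.061 (1.18-fold, adjusted p = 0.13). Ndufa11, an accessory subunit, had pool means from 377 to 435 units at 1 week and from 450 to 492 units at 1 month (0.23 ± 0.058, adjusted p = 0.15). Its arrays overlapped, since the 5% pool at 1 month averaged arrays of 353 and 631 units, and the 1 week arrays ran from 353 to 467 units. Ndufb8 (0.40 ± 0.17, adjusted p = 0.42), Ndufa5 (0.27 ± 0.10, adjusted p = 0.36), Atp5mg (0.17 ± 0.056, adjusted p = 0.26), Cox4i1 (0.13 ± 0.056, adjusted p = 0.41), Cox8a (0.12 ± 0.055) and Uqcrc1 (0.12 ± 0.056) did not pass.

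Duration, age and any processing batch change together here and cannot be told apart. Markers of some other cells also moved between durations, while those of others overlapped. The summed signal of 8 stellate cell and fibroblast probe sets ran from 529 to 625 units in the 1 week pools. It ran from 366 to 438 units in the 1 month pools. The brightest of the 8 was Col3a1, at a mean of 335 units, and among the tested ones only Des was higher at 1 month, by 0.22. For 2 red blood cell probe sets the sums ran from 1281 to 2106 and from 997 to 1173 units. The summed signal of 8 muscle probe sets, of which 1 passed the signal filter, was 27.4 to 41.5 and 41.5 to 52.6 units, ranges that overlapped narrowly. The sums also overlapped for Kupffer cell and macrophage probe sets (201 to 314 and 216 to 267 units) and for endothelium (159 to 234 and 132 to 233 units). Those of the bile duct, adipocyte, leukocyte and pancreas lists overlapped too. Of the hepatocyte markers, the brightest, such as Alb, are held in place by quantile normalization, while Apoa1 ran from 2839 to 4406 units and Tat from 139 to 1073 units over the pools. Their part in the members' difference was not tested.

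Each restricted pool was also set against the control pool of its own duration by a rule of size with no test, a shift of 0.5 or more in log2 signal and no overlap between the arrays of the pools compared. The 4 restricted pools of a duration share 1 control pool. At 1 week 3 of 81 members met it at 5% (14.9% of all tested probe sets did), 2 at 10% (16.8%), 0 at 20% (18.1%) and 3 at 30% (20.8%). At 1 month 5 members met it at 5% (20.5%), 2 at 10% (20.4%), 4 at 20% (19.2%) and 2 at 30% (18.9%). These 21 of 648 differences came from 9 probe sets, 10 of them higher and 11 lower, and 19 came from the 12 members with a mean signal under 100 units. The other 2 were Uqcr10 and Uqcrq at 30% and 1 week, at 1.54-fold and 1.52-fold lower. Each pool had 40.7, 67.9, 79.0 and 67.9% of its members below control at 5, 10, 20 and 30% after 1 week, and 61.7, 64.2, 55.6 and 59.3% after 1 month, where all tested probe sets ran from 48.5 to 49.98%.

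Other genes of energy metabolism are given as counts in the dose trend, where 3.76% of all tested probe sets passed. Of 33 tested probe sets for other respiratory chain and assembly genes 1 rose in the dose trend and 0 fell, with a median slope of 0.06. The one was Sdhaf3, which helps build complex II (0.88 ± 0.17, adjusted p = 0.017 in limma). Of 17 for the citric acid cycle and pyruvate dehydrogenase 1 rose, Sucla2, of succinyl-CoA synthetase (0.32 ± 0.077, adjusted p = 0.042), with a median of 0.01, and 3 probe sets of Cs, citrate synthase, had slopes of -0.22, -0.40 and -0.48 that did not pass. Of 8 for ADP, phosphate and uncoupling carriers 0 passed.

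Of 9 tested probe sets for regulators of mitochondrial biogenesis, Polg2 rose (0.71 ± 0.17, adjusted p = 0.036) and Polg fell (-0.73 ± 0.14, adjusted p = 0.0195), the accessory and the catalytic subunit of the polymerase that copies mitochondrial DNA. Tfam, which packages that DNA, had a slope of 0.21 ± 0.16 (adjusted p = 0.54), Esrra of 0.16 ± 0.39, and Ppargc1a, a coactivator of respiratory genes, was below the filter at 3.06 units. Of 80 for mitochondrial ribosomal proteins Mrpl35 (-0.47 ± 0.10) and Mrpl54 (-0.40 ± 0.096) fell and 0 rose, with a median of -0.09. Of 47 for cytosolic ribosomal proteins 0 passed, with a median of -0.06. The medians of both ribosomal lists thus lay on the same side of 0 as that of the oxidative phosphorylation members.

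Words of known regulators were counted on both strands in the 250 bases before to 50 bases after each start, in RefSeq promoters of GRCr8, for the 76 of 85 member genes that matched. GCGCANGCG, for nuclear respiratory factor 1, was in 19 (25.0%), against 5.80% of 33469 promoters and 7.62% of 21842 protein-coding ones. CCGGAAG, for the ETS family with GABP, was in 21 (27.6%), against 8.75% and 10.7%. CAAGGTCA, for estrogen-related receptors, was in 3 (3.95%), against 1.52% and 1.26%. GGGGCGGGG, for the SP1 family, was in 4 (5.26%), against 9.73% and 12.8%. Member windows had a median GC content of 56.0% and 20 CpG each, against 55.0% and 11 in protein-coding windows, and 3 of the 4 words contain CpG. A match is a description of letters and not a site. Uqcrq and Uqcrh carry the ETS word, Ndufb10 carries the nuclear respiratory factor word, and Ndufa3 carries the SP1 word. Atp5mk also carries the ETS word, while Uqcr10, Atp5f1e and Atp5f1d carry none of the 4 words in this window.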

How the data were processed

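Liver RNA pools were hybridised to Affymetrix arrays, and the deposited intensity of each probe set, on a linear scale, comes from MAS5 according to the submitters' processing notes. Its scaling target is not given in the sources used here. First, 32 values of 0 were set to their array's smallest positive value, then signals were turned to log2 and quantile normalized between arrays. The arrays of a pool were averaged. After that 57 control probe sets, which had been part of the normalization, were left out, and the upper 60% by mean log2 signal were tested. Two-sided tests were made with limma 3.58.1 under R 4.3.3, by lmFit and by eBayes with its variance trend. P-values were adjusted by Benjamini-Hochberg over 9520 probe sets, at a threshold of 0.05. Slopes are given ± SE. Scripts were tested on simulated data. The number of arrays limits the precision.

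Members and lists were chosen with earlier results of these data known. Named members were those past the threshold, the 2 largest slopes and 2 largest duration differences per role, a fixed set of subunits, genes with several probe sets and the brightest and dimmest. Others, such as Uqcrh, Uqcr11, Uqcrfs1, Ndufb10, Ndufa11, Atp5mk, Atp5f1e and Atp5pb, were chosen after their values were seen. Gene names are those of the platform annotation, and promoters came from RefSeq. Alternatives were other scalings, filters, a variance without trend, single arrays, pools left out, a GAPDH covariate and a replicate block.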

Additional observations from a re-analysis of the deposited data

Results flagged for a closer look

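Of 108 groups of pools checked for a value far from the others, over 36 named probe sets, 2 held one, and chance gives about 1 in 20. In the dim probe set of Ndufv3 the lowest of the 8 restricted pools, 5% at 1 week, was at 4.16 on the log2 scale, with the next at 4.73. In Sdhc the highest of the 5 pools at 1 week, again 5%, was at 9.30, with the next at 9.17.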

How the results depend on the processing

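The number of members past the dose threshold was 0 in place of 1 with signals as deposited, median centring, a common trimmed mean, no filter, no variance trend or the GAPDH ratio as a covariate. Leaving out each pool or array number in turn gave 0 to 1 for the dose trend, the duration comparison and the slope at 1 week, and 0 for the others. The 1 for duration was Ndufa3 with arrays numbered 2 alone (0.40, adjusted p = 0.0269 in limma), and the 1 for the slope at 1 week was Uqcrq without the control pool of 1 month (-0.52, adjusted p = 0.0185). With arrays numbered 2 alone the dose slope of Ndufa3 was -0.14. The members' medians under those omissions ran from -0.09 to -0.05 (dose trend), -0.07 to -0.04 (step), 0.04 to 0.06 (duration), -0.166 to -0.0717 (1 week), -0.0311 to 0.0320 (1 month) and 0.0710 to 0.157 (difference of slopes). The 30% pool at 1 week gave the extremes of -0.166 and 0.157 when left out. As deposited they were 0.0298, 0.167, 0.243, -0.00933, 0.0658 and 0.0515 in that order. Median centring gave -0.101 for the dose trend, -0.0791 at 1 month and 0.0239 for the difference, and the GAPDH covariate 0.0374 at 1 month. The rule of size gave 21 member differences, 71 as deposited, 38 with median centring and 3 at a log2 difference of at least 1. At that stricter size, from 345 to 567 of the 9520 tested probe sets met the rule in each pool. Arrays as deposited differ in brightness, which alone can shift probe sets past 0.5. The shares over all tested probe sets as deposited and with median centring are not given here. Array numbers do not pair the samples, since correlations of same-numbered deviations over 45 pairs of pools had a median of 0.03 and 2 exceeded 0.1. A replicate block of array number, with the pool as a random block, gave 4 members in the dose trend (Ndufb10, Ndufv3, Atp5mk and Atp5f1e, without Ndufa3), 2 in the step (Ndufv3 and Ndufaf4), 2 for duration (Atp5f1d and Ndufs3) and 3 at 1 week (Uqcrq, Uqcrh and Atp5mk), with adjusted p from 0.00857 to 0.0371 in limma. The replicate block was fitted on single arrays, with a consensus correlation of 0.23 between the 2 arrays of a pool. Repeats of the same RNA were thus weighed largely as separate samples, whereas the pool is the unit of the main tests. The calls of the replicate block were absent from the main tests and are not counted as results here. None of 26 other named results passed in the main setting. Of their 518 alternative values 515 did not pass either and 3 did, a tally that does not show how far the estimates moved. The 2 arrays behind each pool limit the precision of members under 100 units.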

Other observations

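A further 7 tested probe sets list a subunit together with a near-identical copy and were not counted as members. They read Atp5mc1, Atp5mc2, Cox5a, Cox7a2, Ndufa10, Ndufs5 and Uqcrb, and none passed in limma in any of the comparisons. The Cox5a probe set read 797 units, where the one listed for Cox5a alone read 24.8 units, and its slope was -0.14 ± 0.10 (adjusted p = 0.49). Uqcrb, another small subunit of complex III, read 1232 units, with a slope of -0.14 ± 0.059 over both durations (adjusted p = 0.22) and of -0.19 ± 0.084 at 1 week (adjusted p = 0.31). Ndufs5, an accessory subunit of complex I, had slopes of -0.24 ± 0.13 at 1 week and 0.20 ± 0.13 at 1 month, and their difference of 0.44 ± 0.18 did not pass (adjusted p = 0.90).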
